A study of Capra hircus with 12 samples.

Results

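The miRNAs described here are the products of the miR-17-92 and miR-106a-363 clusters in secondary hair follicles (SHFs), the small follicles that grow cashmere. Members were all listed miRNAs named miR-17, miR-18a, miR-18b, miR-19a, miR-19b, miR-20a, miR-20b, miR-92a, miR-106a or miR-363, with both arms of a precursor where both were listed. This gave 14 of the 376 miRNAs in the deposited tables, 9 major arms and 5 minor arms, and 12 of the 14 passed the filter on low counts. The libraries were made from SHFs of 1.5-year-old Liaoning cashmere goats, with 1 library of females (F) and 1 of males (M) in each of 6 months. February and March were telogen, the resting phase (4 libraries). May was early anagen and September mid-anagen, the phase of growth (2 libraries each), and November and December were catagen, the phase of regression (4 libraries). The follicles were cut from scapular skin under a microscope, no animal was treated, and the sources used here do not name how many goats went into a library. The p-values below therefore measure the spread between libraries, which may be partly technical.

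In mammals the miR-17-92 cluster yields miR-17, miR-18a, miR-19a, miR-20a, miR-19b and miR-92a from a single primary transcript, and the miR-106a-363 cluster is a related copy on the X chromosome. The MYC and E2F factors transcribe miR-17-92, which is known for its activity in dividing cells. The mature miRNAs fall into groups that share the seed, the bases near the 5′ end with which a miRNA recognises its targets. The miR-17 group, which also holds miR-20 and miR-106, is known to repress CDKN1A and E2F1, miR-18 represses CTGF, and miR-92a represses ITGA5. A further copy, miR-106b, miR-93 and miR-25, lies in an intron of MCM7 and carries the seeds of the miR-17 and the miR-92 groups.

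In the goat RefSeq annotation (assembly ARS1.2, a different assembly from that of the authors, used for gene order only), the 6 genes MIR17, MIR18A, MIR19A, MIR20A, MIR19B and MIR92A were direct neighbours with 0 other genes between them. MIR106A, MIR18B, MIR20B and MIR363 (4 genes) lay together on an unplaced sequence, with 1 other gene, MIR92B, between MIR20B and MIR363. No listed miRNA was named miR-18b. Members were put into seed groups by the name of their precursor, minor arms included. The miR-17 seed group held 6 members (5 past the filter), the miR-18 group 2, the miR-19 group 3 (2 past the filter) and the miR-92 group, with miR-363, 3. Of these, 4, 1, 2 and 2 were major arms, and the minor arms carry another seed than that of their group. Major arms of a seed group can differ by few bases, and the sources used here do not name how reads that matched several miRNAs were assigned. The split of reads within a seed group, above all between miR-17-5p and miR-106a-5p and between miR-20a-5p and miR-20b, is uncertain to that extent. miR-19b and miR-92a have a gene copy in each cluster in other mammals, so the cluster of origin of their reads cannot be told apart.

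The 14 members took 1.02% of all miRNA counts on the mean of the 12 libraries, and miR-92a-3p, miR-20a-5p and miR-17-5p held 92.4% of that. Levels are in TPM, the count divided by the library total and brought to a common scale by the authors. chi-miR-92a-3p had a TPM of 3891 ± 1203 (SD, n = 12 libraries) and chi-miR-20a-5p of 3783 ± 1439, so that the order of these members lay within their spread. chi-miR-17-5p followed with 1770 ± 906 and chi-miR-19b-3p with 657 ± 233. chi-miR-18a-5p (44.9 ± 18.9) and chi-miR-19a (32.6 ± 16.6) were again lower, and their ranges overlapped. All other members were scarce: miR-106a-5p, miR-20b and miR-17-3p had a mean TPM of 7.84, 7.65 and 7.59, an order well within their spread, and miR-363-3p, miR-18a-3p and miR-92a-5p one of 5.50, 4.23 and 3.67. The unfiltered miR-19b-5p (5 to 16 counts per library) and miR-20a-3p (0 to 8 counts) were not tested.

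**Figure D1:**
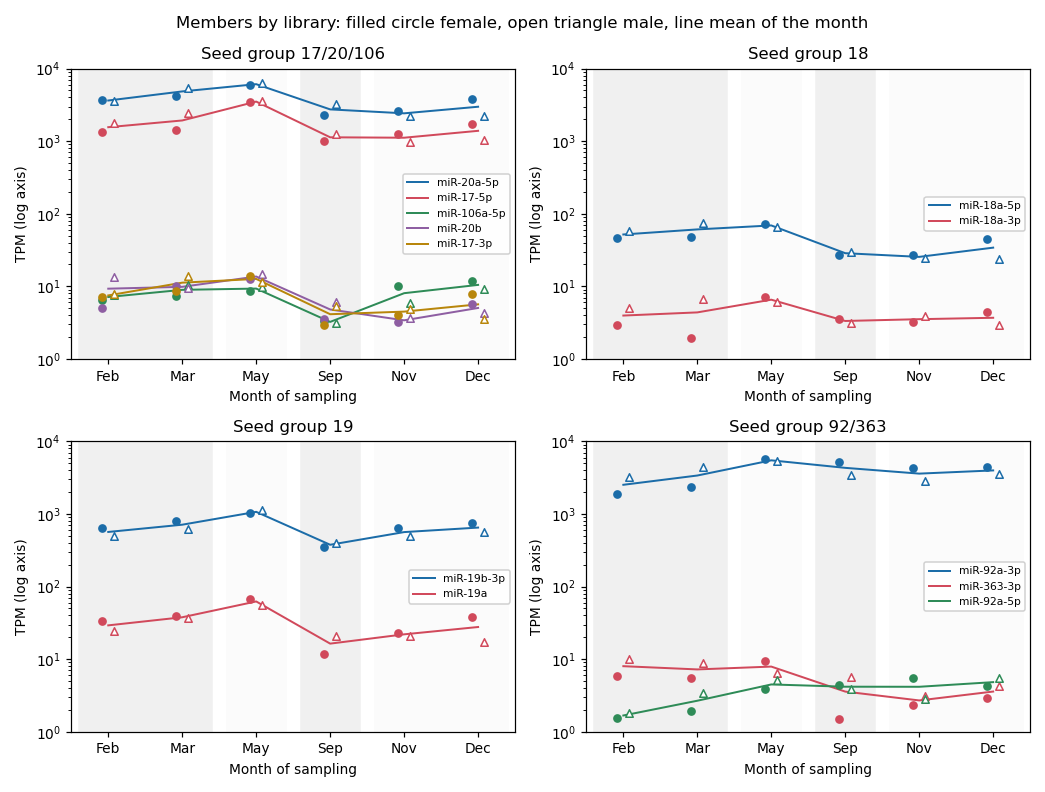
TPM (log axis) of the 12 tested members in each library by month, 1 panel per seed group; filled circles are female libraries, open triangles male libraries, lines the monthly means, and shading separates telogen (Feb, Mar), May, September and catagen (Nov, Dec). In TPM the May libraries are the highest for miR-17-5p, miR-20a-5p, miR-19b-3p, miR-19a and miR-92a-3p, though no longer for miR-92a-3p after TMM. In September the first 4 are lower, while the female library of miR-92a-3p is at 5183 and the male at 3476.

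The sum of all members was highest in May, at a TPM of 16220 (F) and 16502 (M). It lay between 7587 and 13100 in the 4 telogen libraries, at 8873 and 8416 in September, and between 6611 and 10750 in catagen. The May libraries therefore stood above all 10 others. The members found only in the miR-106a-363 cluster (miR-106a-5p, miR-20b and miR-363-3p) summed to at most 31.3 in any library. The rest of the sum came from names of the miR-17-92 cluster. Of these, miR-19b and miR-92a (a summed TPM of 4554 on the mean of the 12 libraries) can come from either cluster.

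Depth ranged from 3135292 to 5788032 counts per library (median 4469051), and 3 counts corresponded to a TPM of 0.518 to 0.957, for counting error only. The TMM factors that adjust library sizes were 1.25 and 1.29 in May but 0.848 and 0.912 in September. The median log2 fold change of all 300 tested miRNAs from May to September was 0.07 after TMM and -0.46 with library totals, so a fall from May to September is larger in TPM than in the tests. Epithelial markers (6 found, miR-203 leading, and no miR-205 listed) summed to a TPM of 56735 to 96687 and each had counts in all libraries. Mesenchymal markers (9 found) summed to 118318 to 148888, endothelial markers (2 found) to 8819 to 12699, muscle markers (6 found, miR-206 at 0 in some libraries) to 1902 to 3614 and leukocyte markers (4 found, no miR-142 listed) to 393 to 664. Erythrocyte markers (miR-451-5p and miR-144-5p) summed to 27.9 to 115 in telogen, 24.6 to 45.9 in May, 16.6 to 28.3 in September and 5.41 to 26.4 in catagen. In bulk follicles, fewer cells of a type and less miRNA per cell cannot be told apart.

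From early to mid-anagen, that is from May to September, miR-17-5p, miR-17-3p and miR-19a fell at least 2-fold with an adjusted p under 0.05 (edgeR quasi-likelihood test, TMM, Benjamini-Hochberg over 300 miRNAs), so 3 of 12 tested members were called, all lower in September. Of all miRNAs, 18.3% were called, and 8.67% were called lower. By adjusted p alone 6 of 12 members passed, where 34% of all miRNAs did. On the log2 scale 10 members were lower and 2 higher in September, with a median of -0.86, where the median of all 300 was 0.07. Some marker sums differed in TPM between the May and September libraries, of which there were only 2 each. The epithelial sum was a TPM of 81375 to 88411 in May and 56735 to 72600 in September, without overlap. The muscle sum was 2113 to 2745 and 3389 to 3461, again without overlap. The mesenchymal sum was nearly level in TPM, at 136171 to 140589 and 140852 to 141278. Unlike the tests of the members, these sums were not adjusted by TMM. With TMM factors of 1.25 and 1.29 in May and 0.848 and 0.912 in September, TMM lowers the May sums against those of September. The gap in the epithelial sum and the level mesenchymal sum therefore cannot be carried over to the scale of the tests. A sum can hide markers that move apart. The authors place miR-199a-3p among miRNAs that peak in May, but miR-143-3p and miR-200a among those lowest in May. The leukocyte, erythrocyte and endothelial sums overlapped between these months in TPM. The part of these cell types in the changes of the members was not tested.

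In the miR-17 seed group, chi-miR-17-5p, the main product of its precursor, had a TPM of 3481 (F) and 3533 (M) in May and of 1004 (F) and 1255 (M) in September. In telogen it was at 1333 and 1780 in February and 1439 and 2414 in March (F and M), and in catagen at 1267 and 962 in November and 1725 and 1049 in December. No other library reached the May libraries. In the test the step from May to September was -1.11 on the log2 scale (SE 0.25, adjusted p = 0.00573, edgeR).

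miR-20a-5p, the more abundant relative of miR-17-5p, had a TPM of 5848 and 6341 in May (F and M) and of 2270 and 3207 in September. The telogen libraries held 3634, 3625, 4236 and 5450 and the catagen libraries 2625, 2208, 3757 and 2199 (F and M of the earlier month, then of the later). As for miR-17-5p, both May libraries were above all others. Its change from May to September, -0.63 on the log2 scale (SE 0.24), did not pass the threshold (adjusted p = 0.0543, edgeR). With library totals in place of TMM it was -1.15 and miR-20a-5p was called.

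chi-miR-17-3p, the minor arm of miR-17, had a TPM of 13.8 and 11.5 in May and 2.96 and 5.28 in September, from 14 to 57 counts per library over the year. Its log2 fold change was -1.10 (SE 0.40, adjusted p = 0.0484, edgeR). The call rested on a narrow margin: with sex as a replicate block the adjusted p was 0.0542, and the call was lost when any of 7 of the 12 libraries was left out. miR-20b (log2 fold change -0.99, adjusted p = 0.0808) did not pass, and miR-106a-5p passed by adjusted p only (-0.99, SE 0.34, adjusted p = 0.0382, edgeR).

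In the miR-19 group, chi-miR-19b-3p had a TPM of 1021 and 1123 in May and 356 and 398 in September (F and M). It lay at 642, 491, 796 and 630 in telogen and at 633, 495, 744 and 558 in catagen. In TPM the September libraries were thus the lowest and the May libraries the highest of the year. After TMM the male February library lay below the male September library. The May libraries stayed the highest after TMM, but the female December library nearly reached the female May library. From May to September the log2 fold change was -0.98 (SE 0.25, adjusted p = 0.0102, edgeR), just under 2-fold, and RLE normalization, library totals, DESeq2 and both other filters brought it past 2-fold.

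miR-19a, listed without an arm, had a TPM of 68.4 and 56.5 in May and 11.9 and 20.9 in September. In telogen it was at 33.7, 24.8, 39.1 and 36.5 and in catagen at 22.9, 21.1, 38.2 and 17.3, so that May stood above the rest. The change from May to September on the log2 scale, -1.42 (SE 0.37, adjusted p = 0.0114, edgeR), was the farthest from 0 of the 12 members.

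In the miR-18 group, chi-miR-18a-5p had a TPM of 72.8 and 65.1 in May and 27.0 and 30.1 in September. The log2 fold change was -0.75 (SE 0.27, adjusted p = 0.0484, edgeR), under 2-fold. Its minor arm miR-18a-3p, with 10 to 29 counts per library, had a log2 fold change of -0.45 (adjusted p = 0.451, edgeR).

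In the miR-92 group, chi-miR-92a-3p had a TPM of 5671 and 5322 in May and of 5183 and 3476 in September (F and M). The telogen libraries held 1866, 3193, 2348 and 4440, and the catagen libraries 4335, 2875, 4401 and 3581. In TPM May was again highest, but the female September library nearly reached it, and the female libraries of February and March were the lowest. After TMM May was not the highest. The TMM-normalized CPM was 4542 and 4137 in May (F and M), but 6114 in the female September and 5333 in the female November library. Between May and September the log2 fold change was 0.19 (SE 0.30, adjusted p = 0.649, edgeR), and it turned to -0.34 with library totals. The minor arm miR-92a-5p had a TPM of 3.87 and 5.10 in May and 4.44 and 3.91 in September, and miR-363-3p, of the second cluster, had a mean of 7.91 in May and 3.58 in September and did not pass the test (log2 fold change -0.66, SE 0.50, adjusted p = 0.333, edgeR).

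The calls from May to September rested on few libraries. Without the female September library 0 members were called and the log2 fold change of miR-17-5p was -1.01 (adjusted p = 0.0604, edgeR). Without the female March, the male March or the male December library, 5, 6 and 5 members were called. In the fit by single months 2 members, miR-17-5p and miR-19a, were called, where 17.3% of all miRNAs were.

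Before May, 0 members were called from telogen to May, against 2.33% of all miRNAs (edgeR), although 11 of 12 members were higher in May. Their median log2 fold change was 0.42, where that of all 300 miRNAs was -0.001. An unadjusted p under 0.05 was found for 5 members and for 88 of all 300 miRNAs (edgeR). DESeq2 also called 0 members. miR-17-5p alone had an adjusted p under 0.05 (log2 fold change 0.83, SE 0.20, adjusted p = 0.0341, edgeR), where 5.33% of all miRNAs had. It reached 2-fold, and so was called, with library totals (1.01) and without the male March library (1.03). The value of miR-92a-3p was 0.72 (SE 0.26, adjusted p = 0.0959, edgeR) and that of miR-19b-3p 0.53 (SE 0.21, adjusted p = 0.131, edgeR). Between the adjacent months March and May, 0 members and 0% of all miRNAs were called by edgeR, with 1 member (miR-17-5p, 0.73) and 52 of all miRNAs at an unadjusted p under 0.05, and 7 miRNAs called by DESeq2, none of them a member.

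**Figure D2:**
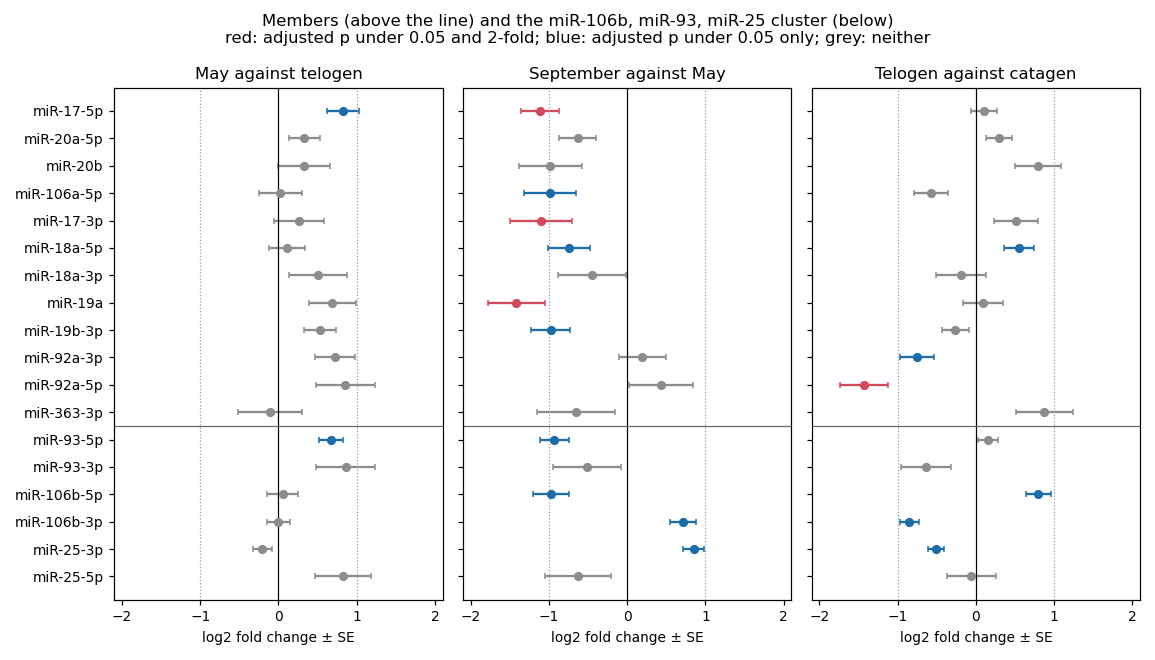
Log2 fold change ± SE (edgeR, TMM) of the 12 tested members, above the line, and of both arms of miR-106b, miR-93 and miR-25, below it, in 3 comparisons; red marks an adjusted p under 0.05 with at least 2-fold, blue an adjusted p under 0.05 alone, and dotted lines 2-fold. From May to September miR-17-5p lies at -1.11 and miR-19a at -1.42, while miR-92a-3p lies at 0.19 (-0.34 with library totals) and miR-25-3p at 0.85.

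From catagen to telogen 1 of 12 members was called, miR-92a-5p, where 10.7% of all miRNAs were called, and 3 passed by adjusted p alone, where 35% did. miR-92a-5p had a TPM of 1.55, 1.80, 1.96 and 3.39 in telogen and of 5.50, 2.83, 4.22 and 5.43 in catagen, from 8 to 28 counts over all libraries. The groups overlapped by the male March and male November libraries, and the log2 fold change was -1.43 (SE 0.31, adjusted p = 0.00405, edgeR). Its major arm miR-92a-3p was also lower in telogen, with a log2 fold change of -0.75 (SE 0.22, adjusted p = 0.0184, edgeR), less than 2-fold, and overlapping TPM (1866 to 4440 in telogen, 2875 to 4401 in catagen). It no longer passed with library totals (-0.36, adjusted p = 0.244) or without the female November library (-0.65, adjusted p = 0.0576, edgeR).

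miR-18a-5p moved the other way. Its TPM was 45.8, 57.7, 47.7 and 73.8 in telogen and 26.6, 24.2, 44.5 and 23.7 in catagen, so that every telogen library was above every catagen library in TPM. After TMM the phases overlapped, with the female December library (48.5 CPM) above the female February (45.5) and female March (45.9) libraries. The log2 fold change from catagen to telogen was 0.55 (SE 0.19, adjusted p = 0.0398, edgeR). The most abundant members of the miR-17 and miR-19 groups did not pass: miR-17-5p had 0.10 (SE 0.17, adjusted p = 0.639), miR-20a-5p 0.29 (SE 0.17, adjusted p = 0.176) and miR-19b-3p -0.27 (SE 0.17, adjusted p = 0.235, edgeR), the last turning to 0.08 with library totals. In TPM the summed erythrocyte markers were higher in telogen, in which miR-92a-3p was lower, and did not overlap between the phases. The margin was narrow, with 27.9 in the female March and 26.4 in the male December library. The TMM factors of these libraries were 1.04 and 0.865, so the gap did not hold after TMM. The part of these markers in the differences of the members was not tested. By month, from December to February, 0 members were called by edgeR, where 1.33% of all miRNAs were. An unadjusted p under 0.05 was found for 3 members and 67 of all 300 miRNAs (edgeR), and DESeq2 called 10 miRNAs with no member among them.

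From May to catagen 1 of 12 members was called, miR-20b, where 16.7% of all miRNAs were. Its TPM was 12.6 and 14.7 in May and 3.18, 3.61, 5.78 and 4.27 in catagen, with a log2 fold change of -1.12 (SE 0.35, adjusted p = 0.0224, edgeR). The call was lost without the male May library or either November library, while 2 members were called without the female March, the male March or the female May library and 4 without the female December library. By adjusted p alone 4 members passed, all lower in catagen, where 37% of all miRNAs passed: miR-20b, miR-17-5p (-0.93, SE 0.20, adjusted p = 0.00395), miR-20a-5p (-0.62, SE 0.20, adjusted p = 0.0254) and miR-18a-5p (-0.66, SE 0.23, adjusted p = 0.0363, edgeR). miR-92a-3p was nearly level, at 0.03 (SE 0.26, adjusted p = 0.937, edgeR).

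From telogen to September, miR-92a-5p was called as higher in September (log2 fold change 1.29, SE 0.36, adjusted p = 0.0197, edgeR), 1 of 12 members, where 9.33% of all miRNAs were called. miR-92a-3p rose by less than 2-fold (0.92, SE 0.25, adjusted p = 0.0197, edgeR) and miR-106a-5p fell by 0.96 on the log2 scale (SE 0.30, adjusted p = 0.0305, edgeR), so that 3 members passed by adjusted p alone, where 25.3% of all miRNAs did. The male September library of miR-92a-3p, at 3476, lay within the telogen range. miR-92a-3p no longer passed with library totals (0.55, adjusted p = 0.167), without the female September library (0.54, adjusted p = 0.302) or in a fit of only these groups (0.91, adjusted p = 0.065, edgeR). The call of miR-92a-5p was lost without either September library and with library totals (0.95). Without the female September library 0 members were called, and without the female February, male February, female May or male September library 2 were.

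Between September and catagen 0 members and 0% of all miRNAs were called by edgeR, with 2 members and 23 of all miRNAs at an unadjusted p under 0.05. The first of these members, miR-106a-5p, had a TPM of 3.33 and 3.13 in September, from 18 and 16 counts, and of 10.1, 5.93, 11.8 and 9.12 in catagen. The September libraries were the lowest of the year. The log2 fold change from September to catagen was 1.54 (SE 0.30, adjusted p = 0.0696, edgeR). DESeq2 and RLE normalization each called it as the only miRNA of all, and it was also called without the male March or male November library. The second, miR-19b-3p, had a log2 fold change of 0.72 (SE 0.22, adjusted p = 0.321, edgeR).

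Since miR-92a-3p and miR-17-5p come in part from a single transcript, their counts were compared within each library, where scaling between libraries cancels. miR-92a-3p had 1.40 and 1.79 times the counts of miR-17-5p in the February libraries (F and M), 1.63 and 1.84 in those of March and 1.63 and 1.51 in those of May. The September libraries had 5.16 and 2.77, those of November 3.42 and 2.99 and those of December 2.55 and 3.41. All 6 libraries of February to May lay below all 6 of September to December, in females and in males alike. How many of all miRNAs separate in the same way against miR-17-5p was not examined, so the split cannot be called particular to miR-92a-3p. The mean log2 ratio was 1.02 lower in February to May, a 2.02-fold difference (exact two-sided permutation test over 6 against 6 libraries, p = 0.00216, the smallest it can give, adjusted p = 0.0238 over 11 members and 2 comparisons). Telogen alone against catagen gave a log2 difference of -0.89 (exact permutation test, 4 against 4, p = 0.0286, again the smallest possible, adjusted p = 0.0952). Both tests permuted libraries without regard to month, although each month gave a female and a male library, so their p-values do not measure the spread between months. The split into earlier and later months joined May to telogen and September to catagen, and was chosen with earlier results of these data known.

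**Figure D3:**
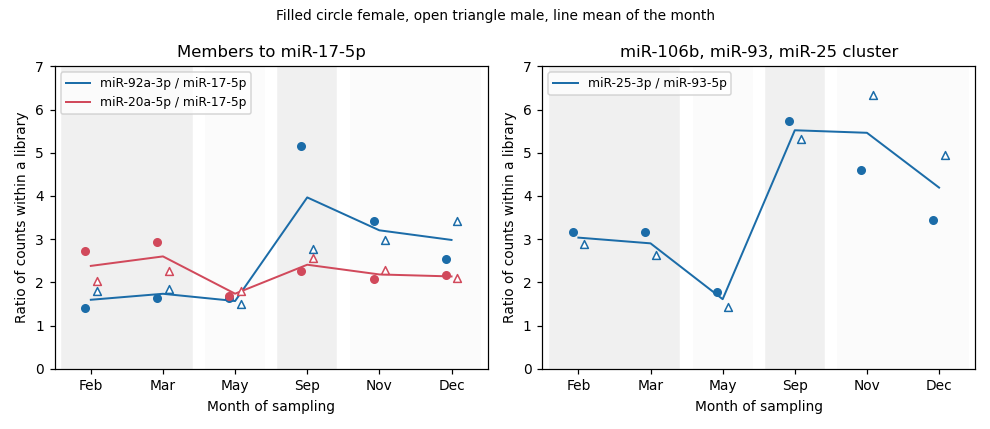
Ratio of counts within each library by month: miR-92a-3p and miR-20a-5p to miR-17-5p (left) and miR-25-3p to miR-93-5p (right); filled circles are female libraries, open triangles male libraries, and lines the monthly means. The ratio of miR-92a-3p to miR-17-5p lies between 1.40 and 1.84 from February to May and between 2.55 and 5.16 from September to December, while that of miR-20a-5p stays between 1.68 and 2.94.

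The ratio of miR-92a-5p to miR-17-5p moved the same way, with a log2 difference of -1.50 between February to May and September to December (exact permutation test, adjusted p = 0.0238). The other 9 members did not pass in either comparison (adjusted p from 0.0952 up, same test), although miR-18a-3p did between the 6 earlier and 6 later libraries with 10 rather than 1 added to each count (log2 difference -0.59, adjusted p = 0.0476, exact permutation test). miR-20a-5p had 2.73, 2.04, 2.94 and 2.26 times the counts of miR-17-5p in telogen, 1.68 and 1.79 in May, 2.26 and 2.56 in September and 2.07, 2.29, 2.18 and 2.10 in catagen, a log2 difference of -0.03 between the 6 earlier and 6 later libraries (exact permutation test, adjusted p = 0.884). For miR-19b-3p that difference was -0.32 (adjusted p = 0.304) and for miR-18a-5p 0.18 (adjusted p = 0.364, exact permutation test).

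The related cluster of miR-106b, miR-93 and miR-25 was listed with both arms of each precursor, and no listed miRNA was named miR-92b, miR-32 or miR-367. None of these 6 miRNAs was called in any of the 6 comparisons of phases, but 4 passed by adjusted p alone from May to September, where 34% of all miRNAs did. miR-93-5p, of the miR-17 seed group, fell from a TPM of 2778 and 3052 in May to 1027 and 1092 in September (log2 fold change -0.93, SE 0.19, adjusted p = 0.00332, edgeR). miR-106b-5p, of the same group, fell from 532 and 454 to 161 and 188 (-0.98, SE 0.23, adjusted p = 0.00749, edgeR). miR-25-3p, of the miR-92 seed group, rose from 4959 and 4381 to 5890 and 5795 (0.85, SE 0.14, adjusted p = 0.00131, edgeR). miR-106b-3p rose as well (0.72, SE 0.17, adjusted p = 0.00749, edgeR).

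miR-25-3p had 3.18, 2.89, 3.16 and 2.64 times the counts of miR-93-5p in telogen, 1.79 and 1.44 in May, 5.73 and 5.31 in September and 4.59, 6.33, 3.43 and 4.95 in catagen. As for miR-92a-3p and miR-17-5p, the 6 libraries of February to May lay below the 6 of September to December, which is given without a test. From catagen to telogen miR-25-3p fell by 0.51 on the log2 scale (SE 0.10, adjusted p = 0.0023, edgeR) and miR-93-5p had 0.15 (SE 0.13, adjusted p = 0.359, edgeR). From telogen to May miR-93-5p rose by 0.67 (SE 0.16, adjusted p = 0.0341, edgeR).

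miR-93-5p was also the miRNA whose levels were most like those of miR-17-5p (log2 TMM-normalized CPM over 12 libraries of 4 phases, Pearson's r = 0.98 and Spearman's rho = 0.93, first of 299 miRNAs, whose median r was 0.01). miR-107-3p (r = 0.92) and miR-340-5p (r = 0.90) came next, ahead of miR-20a-5p (r = 0.86, at 4 of 299). miR-19a, miR-18a-5p and miR-17-3p stood at 17 to 19 of 299 (r = 0.77, 0.76 and 0.76), miR-20b at 41, miR-19b-3p at 65, miR-92a-3p at 123 (r = 0.22) and miR-25-3p at 264 (r = -0.71). For miR-92a-3p the most alike outside the clusters were miR-1307-3p (r = 0.88), miR-296-3p (r = 0.86) and miR-345-3p (r = 0.85), and its own minor arm miR-92a-5p ranked second (r = 0.87). These values describe 12 libraries that share their phases and their scaling.

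In 3 member precursors both arms passed the filter, and the log2 ratio of the 5p to the 3p arm was compared between phases (limma, over 82 precursors). For miR-18a it was 3.89, 3.48, 4.47 and 3.40 in telogen and 2.95, 2.57, 3.26 and 2.94 in catagen, with no overlap. The difference from catagen to telogen was 0.88 (SE 0.25, adjusted p = 0.00809, limma), and from telogen to September it was -0.78 (SE 0.30, adjusted p = 0.0472, limma). For miR-92a, whose 3p arm dominates, the ratio was -10.08, -10.62, -10.09 and -10.26 in telogen and -9.55, -9.86, -9.95 and -9.31 in catagen, a difference of -0.59 (SE 0.23, adjusted p = 0.0412, limma). For miR-17 no pair of phases passed (from catagen to telogen -0.39, SE 0.22, adjusted p = 0.155, limma).

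Such differences were common among all precursors: 48.8% passed from catagen to telogen and 39% from telogen to September, where 2 and 1 of the 3 members did. From May to September 40.2%, from May to catagen 43.9%, from telogen to May 9.76% and from September to catagen 0% of precursors passed, and in these comparisons 0 member precursors did. Over the 6 pairs of phases the members' calls numbered 3, but 1 without the female November or the male December library. With 10 rather than 1 added to each count they numbered 2. The scarcer arms of the called ratios were miR-18a-3p (10 to 29 counts per library) and miR-92a-5p (8 to 28).

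The sexes were compared in a fit with a term for month. None of the 12 members and 0% of all miRNAs were called by edgeR, and DESeq2 called 0, with 1 member and 34 of all miRNAs at an unadjusted p under 0.05. That member was miR-19b-3p (male against female log2 fold change -0.29, SE 0.12, adjusted p = 0.407, edgeR), whose male to female ratio of TPM lay between 0.749 and 0.792 in the telogen and catagen months and above 1 in May and September.

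The difference between the sexes was itself compared between telogen and catagen. The TPM of miR-92a-3p in males was 1.71 and 1.89 times that in females in February and March, but 0.663 and 0.814 times in November and December. For miR-17-5p these ratios were 1.34 and 1.68 in telogen and 0.760 and 0.608 in catagen. The difference of the log2 differences was 1.06 for miR-92a-3p (SE 0.26) and 0.93 for miR-17-5p (SE 0.24), with an adjusted p of 0.0815 for each (edgeR). Thus 0 of 12 members were called, where 1.33% of all miRNAs were. An unadjusted p under 0.05 was found for 3 members and 64 of all 300 miRNAs (edgeR). DESeq2 also called 0 members. With library totals miR-92a-3p was called. There were 2 libraries per sex and phase, and whether single animals set these values was not tested.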

How the data were processed

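SHF small RNA libraries (12, from 6 months) were analysed. Per the study's methods, the authors used miREvo and mirDeep2 to find miRNAs in trimmed reads placed on the CHIR_2.0 assembly, and took counts with Bowtie (version 0.12.9 in the submitters' processing notes). They deposited a raw count of each of 376 miRNAs per library. The deposited TPM equals the count over the library total on the TPM scale to within 0.005. Counts were tested in R 4.3.3 with edgeR 4.0.16 (TMM, glmQLFit, glmQLFTest) in 1 fit of 12 libraries with 4 groups, for 300 miRNAs with more than 5 CPM in at least 2 libraries. Called means an adjusted p under 0.05 and at least 2-fold. Adjacent months, sex (month as a term) and sex by phase used further fits. SE is the log2 fold change over the square root of F. Arm ratios used limma 3.58.1, and ratios to miR-17-5p exact permutation tests in SciPy 1.17.1, with 1 added to each count. Alternatives were DESeq2 1.42.0, RLE, library totals, other filters, no minimum fold, sex as a block, 2-group fits and each library left out. The tests were checked on simulated counts. Depth was 3135292 to 5788032 counts per library. Every member was described, and the related cluster, marker lists and the 3 miRNAs most alike to miR-17-5p and to miR-92a-3p were taken by rule. Members, lists and comparisons were chosen with earlier results of these data known. Mature miRNA sequences were not analysed here.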

Additional observations from a re-analysis of the deposited data

Results flagged for a closer look

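Of 28 sets of 4 libraries examined (TPM of each member in telogen and in catagen), 1 held a library far from the others. The female December library had a TPM of 44.46 for miR-18a-5p, where the other catagen libraries lay between 23.67 and 26.62, and the gap took 0.858 of the range. Chance sets apart about 1 in 20 such groups.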

How the results depend on the processing

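The count of members called rested on the processing more than the fold changes did. From May to September (3 members) it was 5 with RLE normalization, with DESeq2 and without a filter on low counts, 8 with library totals, 6 without a minimum fold and 6 in a fit of only these groups; by month (2 members) it was 5 with RLE, 8 with library totals and 4 without a filter. From catagen to telogen (1) it was 3 with library totals or no minimum fold and 0 with a filter at 50 CPM, which removes miR-92a-5p. From telogen to May (0) it was 1 with library totals or no minimum fold. From May to catagen (1) it was 7 with library totals, 2 without a filter, 4 without a minimum fold and 2 in a fit of only these groups. From telogen to September (1) it was 2 with RLE or DESeq2, 3 with library totals or no minimum fold, and 0 at 50 CPM or in a fit of only these groups. From September to catagen (0) it was 1 with RLE or DESeq2, and for the sex difference between telogen and catagen (0) it was 1 with library totals. Apart from the fold limit and the filter, the cause was not tested. Leaving out each library in turn gave 0 to 6 members from May to September, 0 to 1 from telogen to May, 0 to 4 from May to catagen, 0 to 2 from telogen to September, 0 to 1 from September to catagen and 1 to 3 arm ratios.

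The sign changed for miR-92a-3p from May to September (-0.34 with library totals, -0.19 to 0.49 over the libraries left out), for miR-19b-3p from catagen to telogen (0.075 with library totals), and, over the libraries left out, for the log2 ratio to miR-17-5p of miR-19a (-0.16 to 0.16 in telogen minus catagen, -0.0068 to 0.19 in the earlier minus the later 6 libraries) and of miR-20a-5p (-0.11 to 0.048 in the latter). For miR-92a-3p to miR-17-5p, the log2 difference of the earlier minus the later 6 libraries stayed between -1.09 and -0.89. Its adjusted p was 0.0238 to 0.0476 (exact permutation test). In telogen minus catagen the log2 difference lay between -0.98 and -0.81 and did not pass (adjusted p from 0.0898 to 0.19, exact permutation test). With a library left out there, that test cannot give a p under 0.0571. With library totals the calls of all miRNAs shifted from 29 higher and 26 lower in September than in May to 9 and 71, from 19 and 13 higher and lower in telogen than in catagen to 43 and 5, from 27 and 23 to 10 and 72 for catagen against May, and from 14 and 14 to 4 and 38 for September against telogen.

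Sex as a replicate block left 2 members called from May to September and changed no call of a member other than that of miR-17-3p; libraries of a sex share no animal or batch in the labels. The scarce members (miR-17-3p, miR-18a-3p, miR-92a-5p, miR-20b, miR-106a-5p, miR-363-3p) had at most 60 counts in any library, which bounds the precision of their values.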
